A study of Mus musculus with 4 samples.

Results

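The 9 genes described here encode the lymphotoxin β receptor and the core of the non-canonical NF-κB pathway below it. They are the receptor gene Ltbr, the adaptor genes Traf2 and Traf3, the cIAP ubiquitin ligase genes Birc2 and Birc3, the kinase genes Map3k14 (NIK) and Chuk (IKKα), and the subunit genes Nfkb2 (p100) and Relb. They were chosen by name and matched through their Ensembl identifiers to mouse symbols in GENCODE M21. All 9 of 9 were found among the 12208 genes of the table, and all 9 were among the 12160 genes with a mean CPM (counts per 1000000) of at least 1 that entered the test.

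The series measured RNA in mouse 3T3 cells, which the labels call a pre-osteoblast line, given control treatment (marked NC in the titles) or LTAlpha1Beta2 for 24 h or 48 h. The sources used here do not give the kind of 3T3 line, the dose or what the control cells received; the series title writes the ligand as rhLTα1β2. Each of the 4 groups was 1 library of bulk RNA, so a difference at 1 time point rests on 1 pair of libraries with no replicate check, and fewer cells of a type cannot be told apart from less RNA per cell. Depth was 11355974 to 15995777 reads over the listed genes. The treated 48 h library stood apart: its correlation with the other libraries over log2(CPM + 1) was 0.9739 to 0.9819, against 0.9907 to 0.9953 among those, and the median length of the longest transcript, weighted by reads, was 3127 bases there and 3588 to 3659 in the others. Of 9 osteoblast-lineage marker genes 7 were listed, with a summed level of 15900 and 17100 CPM in the control libraries and 9650 and 11600 CPM in the treated ones; Alpl and Ibsp were not among the listed genes. The 5 of 6 fibroblast and mesenchyme markers that were listed summed to 22700 and 24000 CPM in the control and 15700 and 17200 CPM in the treated libraries. Of 3 adipocyte markers Fabp4 alone was listed. It was at 1.94 CPM (24 h) and 1.45 CPM (48 h) in control cells and at 2.4 CPM (24 h) and 6.69 CPM (48 h) in treated cells. Of 6 macrophage and leukocyte markers 3 were listed, Cd68, Csf1r and Lyz2. They summed to 65.1 CPM (24 h) and 75.4 CPM (48 h) in control cells and to 57.4 CPM (24 h) and 85.9 CPM (48 h) in treated cells. The defining gene Ptprc was not listed, nor were any of the lymphocyte, endothelial or epithelial markers. The part of these shifts in the results below was not tested.

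In resting cells the TRAF adaptors and cIAPs hold NIK at a low level by marking it for degradation. When lymphotoxin engages its receptor, TRAF3 and TRAF2 are drawn to the receptor and degraded, NIK accumulates and activates IKKα, and IKKα phosphorylates p100. The p100 protein is then processed to p52, which enters the nucleus with RelB. In stromal cells this route is known for organising lymphoid tissue. Much of it runs on protein stability, which RNA levels do not measure.

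Promoter sequence is shown first for Nfkb2 and Traf3, because these are the members whose RefSeq promoter windows held a match to the κB consensus, the motif of 10 bases that NF-κB dimers bind. Each window runs from 250 bases before to 50 bases after an annotated start site (RefSeq, GRCm38.p6), 5′ to 3′ on the gene's strand, with matches on either strand in capitals. The windows of Nfkb2 are chr19:46304487-46304786 and chr19:46305445-46305744, and that of Traf3 is chr12:111166120-111166419, all on the plus strand.
Nfkb2, first start site: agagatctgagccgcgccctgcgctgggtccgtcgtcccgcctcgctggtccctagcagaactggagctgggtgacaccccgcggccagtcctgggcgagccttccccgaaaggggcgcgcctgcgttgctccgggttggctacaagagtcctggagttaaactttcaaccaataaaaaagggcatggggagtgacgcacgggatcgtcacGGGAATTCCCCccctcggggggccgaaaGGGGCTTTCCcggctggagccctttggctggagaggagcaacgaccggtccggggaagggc
Nfkb2, second start site: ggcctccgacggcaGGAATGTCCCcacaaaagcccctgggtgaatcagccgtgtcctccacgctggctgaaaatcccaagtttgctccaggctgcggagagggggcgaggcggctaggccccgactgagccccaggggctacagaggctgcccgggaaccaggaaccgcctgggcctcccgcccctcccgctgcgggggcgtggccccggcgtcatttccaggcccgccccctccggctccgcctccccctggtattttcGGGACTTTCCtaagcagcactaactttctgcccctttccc
Traf3: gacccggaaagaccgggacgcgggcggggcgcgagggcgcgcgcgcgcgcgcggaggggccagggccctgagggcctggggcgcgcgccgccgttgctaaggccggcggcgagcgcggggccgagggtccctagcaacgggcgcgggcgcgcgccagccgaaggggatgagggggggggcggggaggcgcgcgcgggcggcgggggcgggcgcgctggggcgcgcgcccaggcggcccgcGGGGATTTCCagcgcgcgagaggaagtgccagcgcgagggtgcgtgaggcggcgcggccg
The first Nfkb2 window held overlapping matches beginning 39 and 38 bases before the start site, together the run of capitals on the left, and 1 more beginning 11 bases before it. The Traf3 match, GGGGATTTCC, began 10 bases before the start site. Another Nfkb2 window, which overlaps the second, held the same site, GGGACTTTCC. The second Nfkb2 window also held a match beginning 236 bases before that start site.
Windows were found for 8 of the 9 genes; Relb had none. The consensus was present in 2 of these 8 genes, against 12.3% of the 9238 tested genes with a window, and in 8.46% of all 32851 windows. This describes letters in these windows and says nothing of binding. In the windows of Ltbr, Traf2, Birc2, Birc3, Map3k14 and Chuk these letters were not found.

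**Figure D1:**
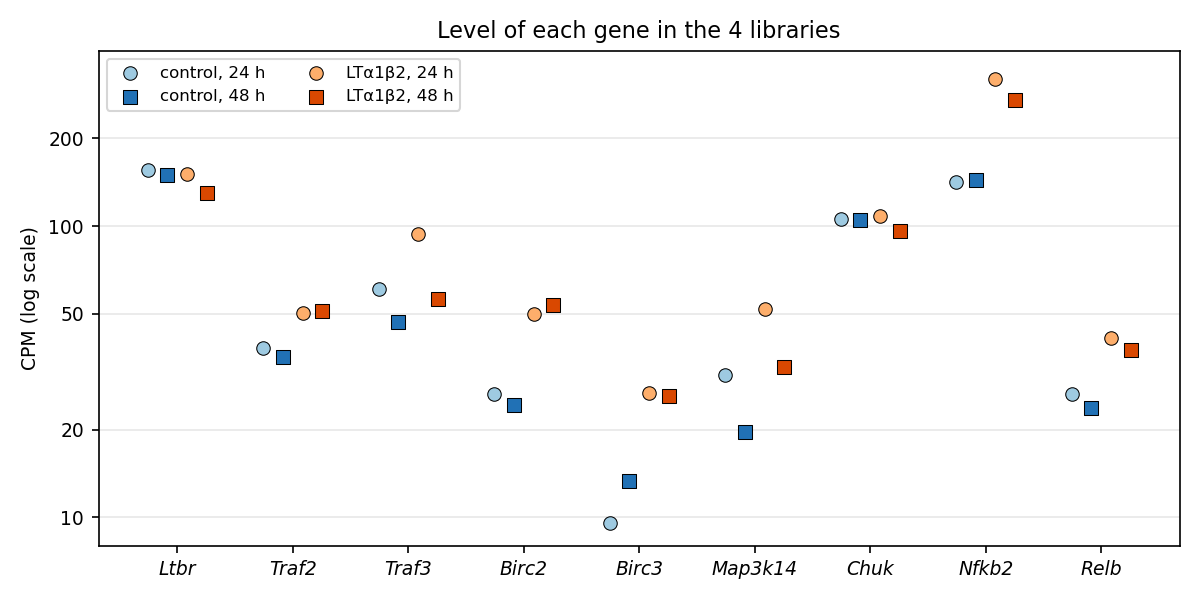
Level of each of the 9 genes in the 4 libraries, in CPM on a log axis; each point is 1 library. For Birc2, Birc3, Map3k14, Nfkb2, Relb and Traf2 both treated libraries lie above both controls, while the points of Ltbr and Chuk lie close together.

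Ltbr, the receptor gene, was at 156 CPM in control cells at 24 h, 150 in control cells at 48 h, 151 in treated cells at 24 h and 130 in treated cells at 48 h. Its treated 24 h value lay between the controls and its treated 48 h value was the lowest. The ratio of treated to control was 0.971 at 24 h (95% counting interval 0.917 to 1.03) and 0.866 at 48 h (0.809 to 0.927); these exact intervals are for counting error alone, not for variation between cultures. In a limma fit of treatment and time over all genes, which takes the 24 h and 48 h differences as repeats of the treatment, its log2 fold was -0.12 ± 0.17 (SE) with an adjusted p of 0.808. Fits that left out 1 library set a lone library against a pair, took the spread from that pair on the assumption that the lone library varies alike, and had no time term, so that time enters their folds. Ltbr was called in 1 of 16 alternative fits, that without the treated 24 h library (log2 fold -0.23, adjusted p = 0.0227, limma), whose treated arm was the 48 h library that stood apart and which called 25.2% of all tested genes lower.

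The gene Nfkb2, which encodes p100, showed the highest treated level of the 9. It was at 142 and 144 CPM in control cells at 24 h and 48 h, and at 320 and 270 CPM in treated cells. The groups did not overlap, and the 2 controls were within counting error of each other (48 h to 24 h ratio 1.01, 0.952 to 1.08). The ratio of treated to control was 2.24 (2.14 to 2.36) at the earlier and 1.87 (1.77 to 1.98) at the later time. Nfkb2 rose in the limma fit, with a log2 fold of 1.03 ± 0.17 (SE) and an adjusted p of 3.91e-07, and ranked 47 of 12160 genes from the highest fold down. The difference between its folds, 48 h minus 24 h, was -0.26 on the log2 scale (-0.37 to -0.15, counting error only), and no test of it was possible with 1 library a group. With median-of-ratios rescaling of the columns its log2 folds were 1.15 and 0.99.

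Relb, whose protein is the partner of p52, had control levels of 26.6 CPM (24 h) and 23.7 CPM (48 h) and treated levels of 41.3 CPM and 37.5 CPM. Both treated values were above both controls. The ratios at the 2 times, 1.55 (1.37 to 1.76) and 1.58 (1.37 to 1.84), lay within each other's intervals. Relb rose in the fit (limma log2 fold 0.63 ± 0.18 SE, adjusted p = 0.0114), and with median-of-ratios rescaling its log2 fold was 0.66. The adjusted p of that rescaled fit was 0.0521 at its estimated 9.76 prior degrees of freedom and 0.000343 with these held at infinity (limma); at 9.76 without rescaling it was 0.167.

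The neighbouring genes Birc3 and Birc2, which encode cIAP2 and cIAP1, were both higher in treated cells. Birc3 had the highest fold of the 9 at 24 h and in the fit over both times, though not at 48 h, where Birc2 was higher, nor without the 24 h control, where its log2 fold of 0.94 was below those of Birc2 (1.05), Map3k14 (1.04) and Nfkb2 (1.02). With a pseudocount of 5 the limma log2 fold of Birc3, 0.95, was below that of Nfkb2 (1.01). At 24 h in that setting the log2 folds were 1.12 for Birc3 and 1.14 for Nfkb2. The control levels of Birc3 were the lowest in CPM, at 9.57 and 13.3 CPM at 24 h and 48 h. In treated cells it was at 26.8 and 26.2 CPM. The treated values were nearly equal, and the controls were not: Birc3 was 1.39-fold higher at 48 h than at 24 h in control cells (1.11 to 1.74) and at 0.977 of the 24 h level in treated cells (0.838 to 1.14). Its ratio to control was 2.80 at 24 h (2.32 to 3.39) and 1.97 at 48 h (1.63 to 2.39). It rose in the fit with a limma log2 fold of 1.16 ± 0.18 (SE) and an adjusted p of 8.0e-08, rank 29 of 12160.

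Birc2 was at 26.5 and 24.4 CPM in control cells and at 49.8 and 53.5 CPM in treated cells. It was the only 1 of the 9 with a fold above 2 at 48 h on the log2(CPM + 1) scale, with ratios of 1.88 at 24 h (1.66 to 2.12) and 2.20 at 48 h (1.92 to 2.53). Its limma log2 fold was 0.99 ± 0.17 (SE), with an adjusted p of 2.16e-06. In GENCODE M21 (GRCm38; the build behind the deposited table is not known here), Birc2 (chromosome 9, 7818227 to 7837064) and Birc3 (7848699 to 7873186) lie 11634 bases apart on the minus strand. The 2 genes are paralogs. Of the 100-base windows of the longest Birc3 transcript 1.64% occurred in transcripts of another gene, Gm7019, and none in those of Birc2. Of the windows of the longest Birc2 transcript 0.464% occurred in transcripts of Birc3 or Gm7019.

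Map3k14, which encodes NIK, moved with both treatment and time. At 24 h its level was 30.9 CPM without and 52.1 CPM with the ligand. At 48 h the levels were 19.6 CPM without and 32.9 CPM with it. The treated 48 h level was thus close to that of the 24 h control, yet both treated values were above both controls. The ratio to control was 1.69 at 24 h (1.51 to 1.89) and 1.68 at 48 h (1.43 to 1.98), and the difference between the log2 ratios was -0.01 (-0.29 to 0.27, counting error only). Map3k14 rose with treatment (limma log2 fold 0.73 ± 0.18 SE, adjusted p = 0.0021), with an adjusted p of 0.107 at 9.76 prior degrees of freedom. Leaving out 1 library moved its log2 fold to 0.40 without the treated 24 h library (adjusted p = 0.0153, limma), 0.41 without the 48 h control (1.0), 1.04 without the 24 h control (0.34) and 1.05 without the treated 48 h library (3.46e-12). From 24 h to 48 h it went to 0.635 of its level in control cells (0.544 to 0.740) and to 0.632 in treated cells (0.557 to 0.716).

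It was also the 1 member of 9 past the threshold for time, against 0.979% of all tested genes, with a limma log2 change of -0.64 and an adjusted p of 0.0398. With median-of-ratios rescaling the change was -0.55 (adjusted p = 0.369, limma), and with the transcript-length trend of each library removed it was -0.52 (0.347). In those fits the prior degrees of freedom were estimated as 9.76 and 7.49; held at infinity, the same values gave adjusted p of 0.00985 and 0.0011 (limma), and without either correction 9.76 gave 0.583. Reads of Map3k14 may be shared with 1700028N14Rik, a gene annotated on the same strand that overlaps it over 2613 bases and was not among the listed genes.

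Traf3, whose protein recruits NIK for degradation, had control levels of 60.9 CPM (24 h) and 46.7 CPM (48 h) and treated levels of 93.6 CPM and 56.4 CPM. Its groups overlapped, since the treated 48 h level was below the 24 h control. Its ratios to control were 1.54 (1.42 to 1.67) and 1.21 (1.08 to 1.35), and the 48 h log2 ratio minus that at 24 h was -0.35 (-0.54 to -0.15). Traf3 did not pass the test (limma log2 fold 0.44 ± 0.17 SE, adjusted p = 0.118). Its longest transcript, 7060 bases, is the longest of the 9, and the treated 48 h library held fewer reads from long transcripts; with the length trend removed its 48 h log2 fold was 0.56 in place of 0.27, and it passed the test (adjusted p = 0.0192, limma). Leaving out 1 library moved its log2 fold between 0.08 without the treated 24 h library (adjusted p = 0.586, limma) and 0.80 without the treated 48 h library (7.7e-12); it was 0.25 without the 48 h control and 0.63 without the 24 h control, with adjusted p of 1.0 in both. Like Map3k14, it was lower at 48 h than at 24 h in both treatments, at 0.766 (0.691 to 0.849) in control and 0.603 (0.548 to 0.662) in treated cells. The time call was not passed, with an adjusted p of 0.0757 (limma).

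Traf2, whose protein brings the cIAPs to TRAF3 and NIK, was at 38.2 and 35.6 CPM in control cells and at 50.5 and 51.1 CPM in treated cells. The groups did not overlap, and the ratios were 1.32 (1.19 to 1.47) and 1.44 (1.27 to 1.63). With a limma log2 fold of 0.45 ± 0.17 (SE) its adjusted p was 0.113. In the fits with a treated arm of 1 library its adjusted p was 0.00833 (24 h library, where 3.31% of all tested genes were called higher) and 0.000787 (48 h library, 15.5%). Without either control it was 1.0 (limma).

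Chuk, the IKKα gene, was at 106 and 105 CPM in control cells and at 108 and 96.5 CPM in treated cells. The treated libraries were 1 above and 1 below both controls. Its ratios were 1.02 (0.95 to 1.09) and 0.917 (0.846 to 0.993), and its limma log2 fold was -0.05 ± 0.17 (SE) with an adjusted p of 0.935.

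**Figure D2:**
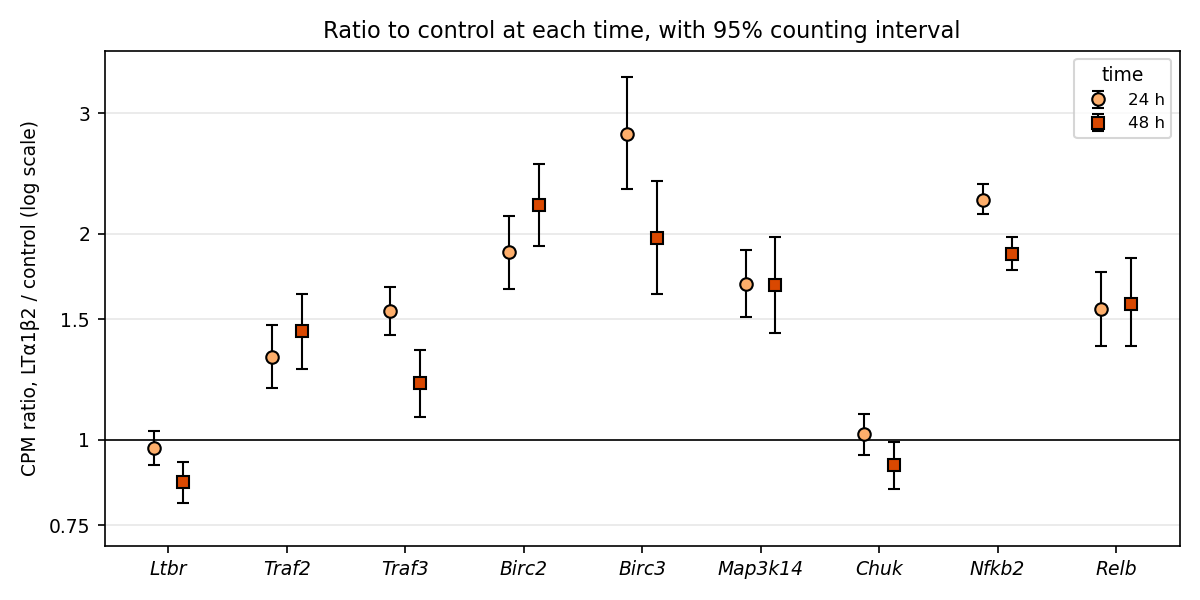
Ratio of CPM in treated to control cells for each of the 9 genes at 24 h (circles) and 48 h (squares), on a log axis, with exact 95% intervals for counting error; the line at 1 marks no difference. Birc3 at 24 h is highest at 2.80, and only Ltbr and Chuk have values near or below 1.

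Over the 9 genes, 5 rose and 0 fell in the limma fit, where 5.19% of all tested genes were called, 2.92% higher and 2.27% lower. At an unadjusted p below 0.05, 7 were higher and 0 lower, against 16.3% of all tested genes in either direction. Limma voom on the recovered reads called 5 higher and 0 lower, against 2.83% and 2.06%. The 5 were Birc2, Birc3, Map3k14, Nfkb2 and Relb. The prior degrees of freedom were estimated as infinite, so the error of each gene was that of genes at a similar level, taken from the disagreement between 24 h and 48 h. No label says that the libraries came from separate cultures, so the p-values cover only that disagreement. Without the treated 48 h library 7 members were called higher, against 3.31% of all tested genes. Without the treated 24 h library 6 were higher, against 15.5%, and 1 was lower, against 25.2%. The number called higher was 0 without the 24 h control (0.189% of all tested genes) and 1, Birc3, without the 48 h control (0.132%). With 9.76 prior degrees of freedom it was 3, against 0.321%.

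For the folds at 1 time the share of all tested genes is given beside each count. At 24 h, 2 of the 9, Birc3 and Nfkb2, were at least 2-fold higher on the log2(CPM + 1) scale, against 0.345% of all tested genes, and 6 were at least 1.5-fold higher, against 1.48%. At 48 h, 1 was at least 2-fold higher, against 1.86%, and 5 were at least 1.5-fold higher, against 7.39%. The 5 genes that rose were those at least 1.5-fold higher at both times, which 0.822% of all tested genes were; 0 of the 9 were 2-fold higher at both, against 0.214%. At 48 h 0 of the 9 were 2-fold lower (0.715% of tested genes) or 1.5-fold lower (6.28%), and at 24 h likewise 0 (0.181% and 1.35%). In 6 genes, the 5 and Traf2, both treated values were above both controls, which held for 20.8% of all tested genes. The reverse held for 0 of the 9 and for 21.3% of all tested genes. With time alone, 1 member was at least 1.5-fold lower at 48 h in control cells (Map3k14, against 0.995% of tested genes) and 2 were in treated cells (Traf3 and Map3k14, against 6.95%). At least 1.5-fold higher at 48 h were 0 of the 9 in either treatment, against 0.403% in control and 5.58% in treated cells. Of 2-fold changes with time the 9 genes had 0, against 0.00822% higher and 0.0247% lower in control and 1.04% higher and 0.428% lower in treated cells. The median log2 fold of the 9 was 0.61 at 24 h and 0.64 at 48 h, and that of all tested genes 0.02 and -0.09.

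**Figure D3:**
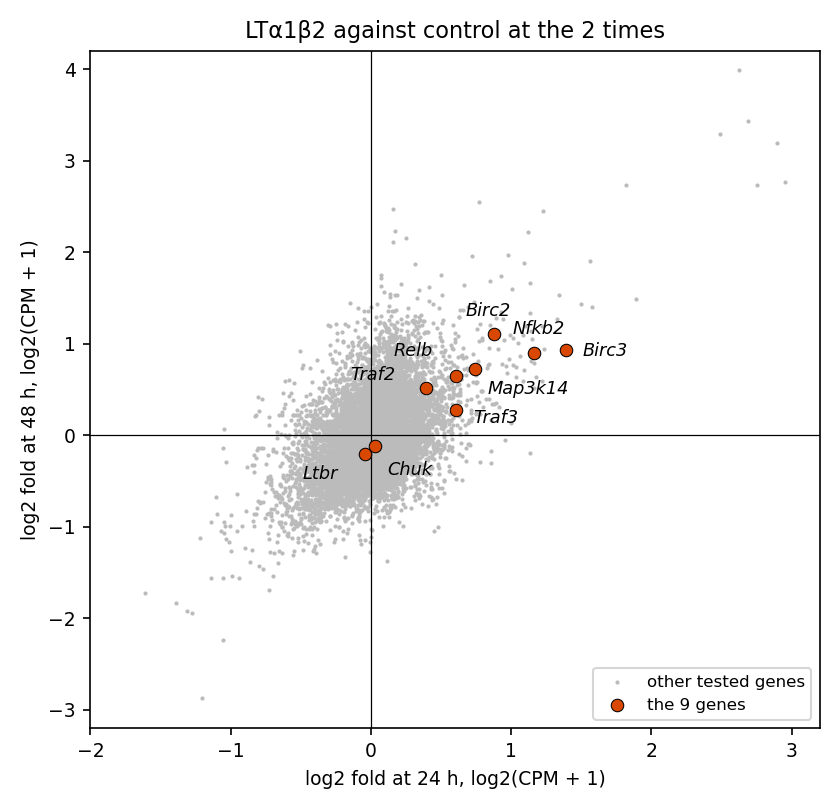
Log2 fold of treated against control cells at 24 h (x axis) and 48 h (y axis), on the log2(CPM + 1) scale, for all 12160 tested genes in grey and the 9 genes in orange. Birc3 lies at 1.39 and 0.93, Birc2 at 0.88 and 1.10, and Ltbr and Chuk lie near the origin.

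Levels were compared between genes per kilobase of the longest annotated transcript. In control cells Ltbr was highest, at 74.0 and 71.2 CPM per kb at 24 h and 48 h, followed by Nfkb2 (37.0 and 37.5) and Chuk (30.4 and 30.1). The other 6 lay between 3.29 and 9.28 CPM per kb, with Birc3 lowest. At 24 h each of Traf2, Traf3, Relb and Birc2 was within counting error of the next gene down, ending with Map3k14. At 48 h the neighbours within counting error were Birc2 and Relb, Relb and Traf3, and Map3k14 and Birc3. No interval was taken between genes further apart in the order.

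In treated cells Nfkb2 was above Ltbr, at 83.2 against 71.9 CPM per kb at 24 h (ratio 1.16, 1.10 to 1.22) and at 70.2 against 61.6 at 48 h (1.14, 1.07 to 1.21). Chuk followed at 30.9 and 27.6. The lowest was Birc3 at 24 h (9.20) and Map3k14 at 48 h (7.76), the latter within counting error of Traf3. Per kilobase, Nfkb2 was at 1.15 and 1.22 times the level of Nfkb1, the gene of the canonical p105 subunit, in the 24 h and 48 h controls and at 2.16 and 2.07 times in treated cells. Nfkb2 was at 4.55 and 5.19 times the level of Relb in the controls and at 6.59 and 6.12 times in treated cells. These ratios within a library assume that the longest transcript stands for each gene, and were not tested.

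The other genes of the pathway were taken from 9 lists that hold 70 genes besides the members; 49 were tested. Of these 6 rose and 0 fell in the limma fit, and their median log2 folds were 0.11 (24 h) and 0.07 (48 h). All 6 were in the lists of IκB and feedback genes and of stromal targets. Upstream, 7 of 8 ligand genes, Lta and Ltb among them, were not among the listed genes, and Tnfsf12 (TWEAK) was at 17.3 to 19.9 CPM in all 4 libraries. Of 5 other receptors that use NIK, 3 were not among the listed genes. Tnfrsf1b, the TNF receptor 2 gene, was 1.32-fold and 1.31-fold higher in treated cells (adjusted p = 0.226, limma), and Tnfrsf12a, the TWEAK receptor gene, was at 0.989 and 1.05 of control.

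Of 5 further lists 0 genes passed the limma test or limma voom. At an unadjusted p below 0.05 these lists held 2 genes, Nae1 and Nedd8. A fit with the length trend removed and the prior degrees of freedom held at infinity called 9.15% of all tested genes higher. It called higher 0 of 4 other TRAF genes, 3 of 10 stability regulators and 1 of 7 kinase genes. From the ligase and neddylation list it called 2 of 10, and from the canonical subunits 1 of 3. The 4 tested TRAF genes besides Traf2 and Traf3 were the first list. Traf5 had a log2 fold of -0.21 at both times, and Traf1 was not among the listed genes. In the list of 10 tested regulators of TRAF, cIAP and NIK stability 0 passed; Tank, whose protein binds TRAF proteins, was 1.37-fold and 1.15-fold higher (adjusted p = 0.358, limma). Of the 7 IKK and TAK1 kinase genes 0 passed. Ikbkb and Ikbkg, the other IKK subunit genes, had limma log2 folds of 0.09 and 0.12, and Tab2, an adaptor of TAK1, was at 0.979 of control at 24 h and 0.686 at 48 h. The 10 genes of the SCF ubiquitin ligase that recognises phosphorylated p100, and of neddylation, which activates it, gave 0 calls as well. Nae1 had ratios of 1.07 and 1.61 to control at the earlier and later time. Those of Nedd8 were 0.975 and 1.65. With the length trend removed the 48 h log2 folds of Nae1 and Nedd8 were 0.80 and 0.34, in place of 0.67 and 0.72. That of Tab2 was then -0.39 in place of -0.54.

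Of the 3 canonical subunit genes 0 passed. Nfkb1 was 1.19-fold and 1.10-fold higher (adjusted p = 0.651, limma), Rela had ratios of 1.21 and 0.994, and Rel of 1.05 and 0.613. For Rel the 48 h log2 fold was -0.69, and -0.39 with the length trend removed. With the length trend removed and the prior degrees of freedom held at infinity, 1 of the 3 was called higher, against 9.15% of all tested genes. Whether Nfkb2 and Relb changed by another amount than Nfkb1 and Rela was not tested.

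Of 8 tested IκB and feedback genes 4 rose in the limma fit. Nfkbie and Nfkbia, which encode IκBε and IκBα, had limma log2 folds of 1.69 and 1.49, above that of each of the 9 members. Tnfaip3, the gene of the ubiquitin-editing enzyme A20, went from control levels of 23.4 and 23.0 CPM to 46.8 and 37.5 CPM with the ligand (adjusted p = 0.000259, limma), and Tnip1, an A20-binding protein gene, was 1.57-fold and 1.40-fold higher (adjusted p = 0.0313, limma). Of 12 stromal target genes 4 were tested and 2 rose, the adhesion molecule genes Vcam1 (limma log2 fold 0.65 ± 0.18 SE) and Icam1 (1.03 ± 0.24 SE). Icam1 rested on 10 to 49 reads a library, and its 48 h control value, 0.764 CPM, was the lowest listed in that library. At 9.76 prior degrees of freedom 0 of the 4 tested stromal targets were called higher, against 0.321% of all tested genes. Of the 8 tested IκB and feedback genes 2 were, and the lists were not tested against each other. Cxcl12, a stromal chemokine gene, was 1.31-fold and 1.25-fold higher (adjusted p = 0.288, limma), and the homing chemokine genes Ccl19, Ccl21a and Cxcl13, which the pathway is known to drive in lymphoid stroma, were not among the listed genes.

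**Figure D4:**
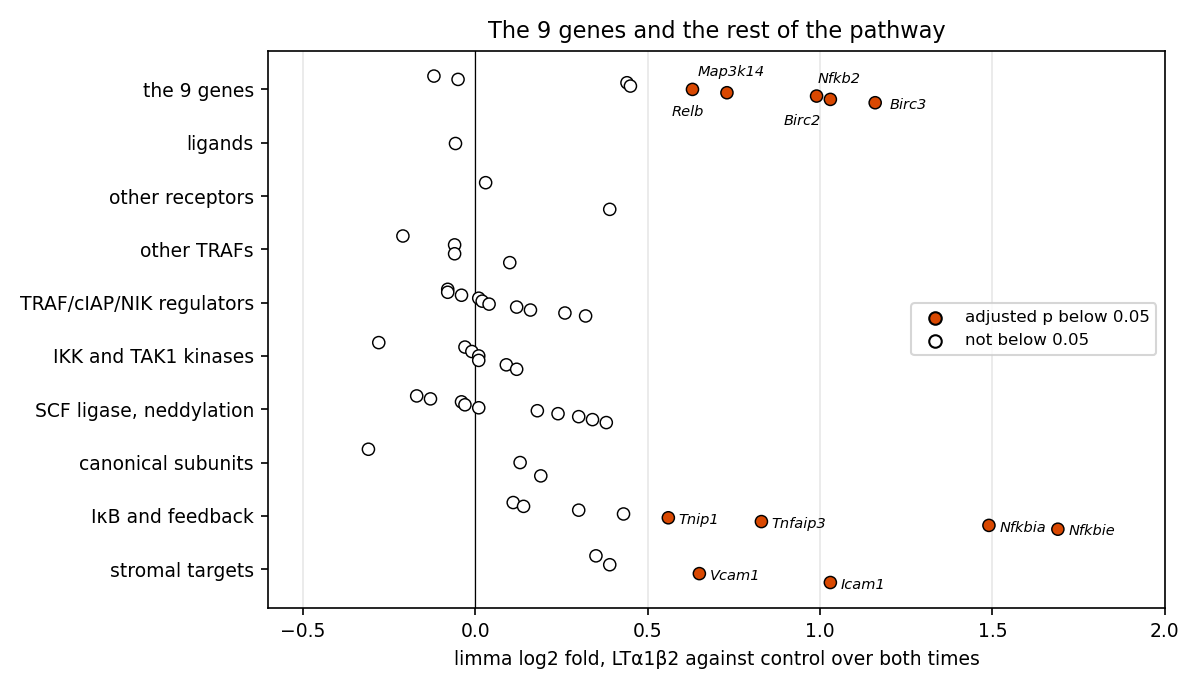
Limma log2 fold of treated against control cells over both times for the 9 genes and the tested genes of 9 pathway lists; each point is 1 gene, and filled points had an adjusted p below 0.05. Outside the 9 genes the filled points are Tnip1, Tnfaip3, Nfkbia, Nfkbie, Vcam1 and Icam1.

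For each of the 5 genes that rose, the 4 genes with the most similar profile were found by Euclidean distance over the 4 libraries, on log2(CPM + 1) centred on each gene's mean. This is a description of 4 points per gene. Nearest to Nfkb2 were Mt2, a metallothionein gene (distance 0.068), the bradykinin receptor gene Bdkrb1 (0.080), Ccdc141 and Icam1. Mt2 and Icam1 were at under 5 CPM in every library, from 1.63 to 4.80 for Mt2. Nearest to Relb were Zfp141, Rnd1, Pla1a and Gm14326, at distances from 0.066 to 0.090. Birc2 lay nearest to Il13ra1, a cytokine receptor gene (0.071), Slco1a5, the death receptor gene Fas and Arhgap22. Il13ra1 had control levels of 80.0 and 75.9 CPM and treated levels of 156 and 157 CPM.

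Birc3 had no gene closer than 0.211, the distance to Tmem176b, which was followed by Tmem176a, Clip4 and Stx11. Map3k14 lay nearest to Sbno2 (0.102), Gm42676, the metalloprotease inhibitor gene Timp1 (0.175) and Osmr, the oncostatin M receptor gene (0.176). Timp1 went from 177 to 123 CPM with time in control cells and from 276 to 175 CPM in treated cells, and Osmr from 174 to 122 and from 301 to 170. From these 5 genes to the other members, the distance was 0.211 between Relb and Traf2, 0.266 between Birc2 and Nfkb2 and 0.341 between Map3k14 and Traf3; pairs among Ltbr, Traf2, Traf3 and Chuk were not compared.

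Some counts may hold reads of other genes. Psd, annotated on the opposite strand, overlaps Nfkb2 over 299 bases and was at a mean of 39.9 CPM, against 219 CPM for Nfkb2. AC114539.1, a non-coding RNA gene on the opposite strand, overlaps Nfkb2 over 1292 bases and was not among the listed genes. The library kit keeps the strand, and whether counting used it is not given in the sources used here. Traf3 is overlapped over 18122 bases by 4930595D18Rik on the opposite strand, which was not among the listed genes. For Ltbr, Traf2, Traf3, Chuk, Nfkb2 and Relb, 0 of the 100-base windows of the longest transcript occurred in transcripts of other genes.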

How the data were processed

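RNA from 4 libraries of mouse 3T3 cells, 1 per group, was sequenced as 150 bp read pairs after strand-keeping library preparation, per the labels' protocols. The authors deposited CPM values for 12208 genes; each column sums to 1000000, and edgeR 3.30.0 is named in the submitters' processing notes. No aligner, counter, genome build or annotation is given in the sources used here. The lowest value corresponds to 9 to 12 reads, and 100% of values were whole multiples of 1 read within 0.01 of a read. Those reads gave exact (Clopper-Pearson, conditional binomial) 95% intervals, which cover counting error only; reads are not independent molecules.

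Symbols, lengths and coordinates came from GENCODE M21, in which 12205 identifiers were found. Log2 folds were taken on log2(CPM + 1), a scale that shrinks the folds of low genes. The tests covered all genes whose mean CPM was 1 or more, and were run with limma 3.58.1 (R 4.3.3; additive time and treatment, trended, two-sided, Benjamini-Hochberg 0.05, 1 residual degree of freedom), and "rose" and "fell" refer to this test. Length trends were removed by lowess. The script was tested on simulated data. With 1 library a group, single-time folds have no test. The members, lists and tests were chosen with earlier results of these data known. Named genes were the 9 members, for each list the 4 tested genes of largest absolute mean log2 fold, and the nearest profiles; other list genes named were chosen after their values were seen.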

Additional observations from a re-analysis of the deposited data

Results flagged for a closer look

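One member and 7 other pathway genes had log2 folds of opposite sign at 24 h and 48 h, with 1 library per group and time. The difference was not tested. For Chuk the folds were 0.03 and -0.12, a difference of -0.15. Rel went from 0.07 to -0.69 (difference -0.75) and Nedd8 from -0.04 to 0.72 (0.75). Smaller differences were those of Rela (-0.28), Traf7 (-0.23), Traf4 (-0.20), Traf6 (-0.19) and Tnfrsf12a (0.08). The treated 48 h library held fewer reads from long transcripts, and the longest transcripts of Rel and Nedd8 have 7466 and 824 bases. With the length trend removed the 48 h log2 folds of Rel and Nedd8 were -0.39 and 0.34. In that setting Rela, Traf4, Traf6 and Tnfrsf12a each had folds of the same sign at both times.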

How the results depend on the processing

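The direction of the 5 genes that rose was the same in all 16 alternative fits. In the fits on the CPM as deposited this was fixed in advance, since both treated values of each gene were above both controls. That held for 20.8% of all tested genes. All 5 were called with pseudocounts of 0.25 and 5, no filter, a mean CPM of at least 5, no trend, and limma voom on the recovered reads, which like both fits at infinite prior degrees of freedom below was chosen after seeing the data. The members called higher were 1 with no time term and 3 with 9.76 prior degrees of freedom, and ranged from 0 to 7 when 1 library was left out; those called lower ranged from 0 to 1. Over all genes, 355 were higher and 276 lower. The counts were 95 and 83 with median-of-ratios rescaling, 158 and 173 with the length trend removed, 20 and 11 with no time term, and 39 and 25 with 9.76 prior degrees of freedom. At infinite prior degrees of freedom rescaling gave 809 and 459, and length-trend removal 1113 and 782. Leaving out 1 library gave from 16 to 1886 higher and from 6 to 3063 lower. With time, 59 genes were higher and 60 lower, and 102 lower with no trend. There 0 were higher and 0 lower with rescaling, with the length trend removed and with 9.76 prior degrees of freedom (limma), where 1448, 1531 and 1018 genes had an unadjusted p below 0.05; at infinite ones rescaling gave 474 and 146, and length-trend removal 615 and 287. By the 2-fold rule 1 member was higher at 48 h, as were 226 of all 12160 tested genes. With a pseudocount of 5, 0 members and 126 of all tested genes were higher. Rescaling gave 2 members and 312 of all tested genes, and length-trend removal 2 members and 163 of all tested genes. By the 1.5-fold rule 6 members were higher at 24 h and 5 at 48 h, against 1.48% and 7.39% of all tested genes. With time 1 was lower in control and 2 in treated cells, against 0.995% and 6.95%. The count test listed among the alternatives was not run. Depth limits the low genes most: Birc3 rested on 153 reads in the 24 h control. No paired analysis was possible because the labels number no replicates and each group held 1 library.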
